A study of Mus musculus with 6 samples.

Results

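The thioredoxins, thioredoxin reductases and peroxiredoxins are the enzymes that carry electrons from NADPH to protein disulfides and peroxides. They were taken as 10 genes, Txn1, Txn2, Txnrd1, Txnrd2 and Prdx1 to Prdx6, by matching the gene identifiers of the count table to mouse symbols and summing all exon bins of each gene. All 10 were present among the 48005 identifiers of the table, and all 10 passed the filter on low counts. RNA sequencing had been done on hearts of C57BL/6 mice, with 3 hearts whose genotype is given as wild-type and whose allele is given as Txnip flox (the controls below), and 3 hearts given as conditional knock-in (the knock-ins below) with the Txnip PPXY to AAXA mutant. MerCreMer, a Cre fused to hormone-binding domains so that it acts only in the presence of drug, and 4-hydroxytamoxifen treatment are listed for all 6 mice, so the controls carry both. The labels give neither the promoter that drives MerCreMer nor the age and sex of the mice or the interval after the drug. The wild-type hearts are stated to be those of another series and no batch is given, so batch and genotype cannot be told apart.

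In this system a thioredoxin reductase, a selenoprotein, uses NADPH to reduce the disulfide of a thioredoxin, and the thioredoxin in turn reduces peroxiredoxins and other oxidised proteins. Peroxiredoxins reduce hydrogen peroxide with a conserved peroxidatic cysteine, and the heart has separate cytosolic and mitochondrial sets. Txnip, the gene altered in the knock-in, encodes an alpha-arrestin that forms a disulfide with an active-site cysteine of thioredoxin, and its PPXY motifs bind ubiquitin ligases of the Nedd4 family. The question taken up here was whether transcripts of the system that Txnip binds differed in hearts with the altered allele.

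The cysteines on which this chemistry depends can be read in the coding sequences, which are shown so that the members of each class can be set side by side. They come from GENCODE transcripts of GRCm38, 5′ to 3′ in the sense of the gene, with the codons of the active-site cysteines in capitals and, in the reductases, the cysteine codon with the TGA codon read as selenocysteine. In the thioredoxins the capitals are codons 32 and 35 of Txn1 (exon 2) and codons 90 and 93 of Txn2 (exon 3, with the start of the printed stretch in exon 2).
Txn1, chr4:57951812-57951841, reverse strand: gctacgtggTGTggacctTGCaaaatgatc
Txn2, chromosome 15, reverse strand: gcacagtggTGTggccccTGCaagatccta
Txnrd1, chr10:82896022-82896042, forward strand: ctccagtctggcTGCTGAggt
Txnrd2, chr16:18477757-18477777, forward strand: actgtgactggtTGCTGAggc
Prdx1, chr4:116691802-116691831, forward strand: cctcttgactttacttttgtgTGTcccacg
Prdx3, chromosome 19, reverse strand: cctttggatttcacatttgtgTGTcctaca
Prdx5, chr19:6907982-6908011, reverse strand: cctggggcatttacacctggcTGTtctaag
Prdx6, chr1:161247362-161247391, reverse strand: ccacgggactttaccccagtgTGCaccaca
The TGA of Txnrd1 is codon 498 of 499 and that of Txnrd2 is codon 526 of 527, so in both it stands just before the last codon. The capital cysteine is codon 52 of Prdx1, codon 109 of Prdx3 (exon 4, with the start of the printed stretch in exon 3), codon 96 of Prdx5 and codon 47 of Prdx6.

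Txnip itself (ENSMUSG00000038393, chromosome 3, 96557957 to 96561883, with coordinates on GRCm38 here and below) stood at 887, 939 and 886 CPM (counts relative to the TMM-scaled depth of each library) in the controls and 363, 751 and 670 CPM in the knock-ins. Every knock-in heart was below every wild-type heart, with knock-in replicate 1 the lowest, but the difference of -0.60 ± 0.20 (log2, SE) over all bins gave an edgeR adjusted p of 0.0698 and did not pass the threshold of 0.05. This sum joins parts that moved in opposite directions, each past the threshold. The difference was -0.93 over the bins before the last 1000 exonic bases (edgeR adjusted p = 0.0078), a setting added after seeing the data. Within the last 1000 bases it was 4.58 (edgeR adjusted p = 0.0057). The controls were hardly read there. The 817-base untranslated bin of exon 8 held 3.21, 3.87 and 2.86 CPM in the controls and 34.5, 89.2 and 84.6 CPM in the knock-ins. The coding bin of exon 7 held 81.0, 84.0 and 72.4 CPM in the controls and 29.1, 59.3 and 49.4 CPM in the knock-ins. The cause of this difference along the gene was not tested. Over all bins it also passed without knock-in replicate 1 (-0.36, edgeR adjusted p = 0.0344), with upper-quartile scaling (-0.68, edgeR adjusted p = 0.0448) and with DESeq2 (-0.61, adjusted p = 0.0175). A level of counts does not check which hearts carried the altered codons. Control libraries summed to between 30329004 and 30625093 counts, knock-in libraries to between 31989883 and 34016586. The log2 ratio of counts near the 3′ end to counts near the 5′ end, as a median over 1757 long genes, was 0.76, 0.53 and 0.35 in the controls and -0.05, -0.17 and -0.10 in the knock-ins, so coverage along transcripts moved with the genotype. The hearts of a group are separate samples, and p-values set the difference between the groups against the spread between hearts within them. A shift between the series would be part of that difference and not of that spread.

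None of the 10 genes passed the threshold, and their log2 differences (knock-in minus wild-type) lay between -0.26 and 0.15. With edgeR's quasi-likelihood test and Benjamini-Hochberg adjustment, 0 of 10 were called, while 10.8% of the 13066 genes tested were called. DESeq2 and limma-voom also called 0, and in each of the 3 tools 1 member had an unadjusted p under 0.05, against 27.7% of all genes in the edgeR fit. The median log2 difference of the members was -0.01, against -0.00 over all tested genes. The median size of the difference, whatever its sign, was 0.103 for the members and 0.249 over all tested genes. The tested genes were not matched to the members for level. The members therefore cannot be called steadier than other genes of like level. The 95% interval of the difference stayed within 1.5-fold in either direction for 9 of the 10, and Prdx4, the least abundant, was the exception. The values of the 6 hearts did not overlap between the groups for 2 members, Prdx1 (lower) and Prdx3 (higher), where 30.7% of all tested genes showed no overlap.

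**Figure D1:**
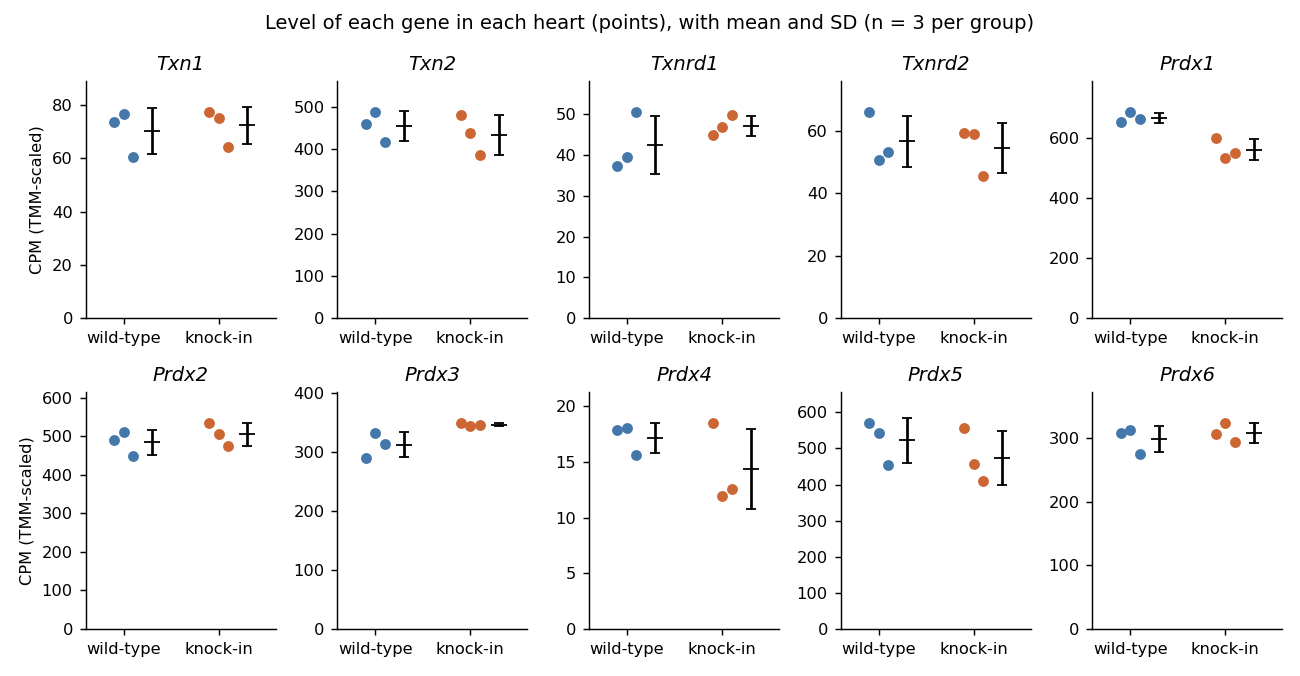
Level of each of the 10 genes in CPM (vertical axis, from 0) in 3 wild-type (blue) and 3 knock-in (orange) hearts, with the mean and SD of each group in black. The groups overlap in 8 panels, whereas the knock-in hearts lie below the wild-type hearts for Prdx1 (534 to 602 against 655 to 688 CPM) and above them for Prdx3 (345 to 350 against 291 to 333 CPM).

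Txn1 (ENSMUSG00000028367, chromosome 4, 57943373 to 57956411), the cytosolic and nuclear thioredoxin, stood at 73.7, 76.8 and 60.4 CPM in the controls and 77.4, 75.3 and 64.4 CPM in the knock-ins. Replicate 3 was the lowest heart of both groups, and the groups overlapped. The log2 difference was 0.04 ± 0.13 (SE), with a 95% interval from -0.23 to 0.31 (edgeR adjusted p = 0.861). Txn2 (ENSMUSG00000005354, chromosome 15, 77915047 to 77929006), the thioredoxin of the mitochondrial matrix, stood at 460, 488 and 418 CPM in the controls and 480, 437 and 385 CPM in the knock-ins. The groups overlapped here too, and the log2 difference was -0.07, with an interval from -0.31 to 0.18 (edgeR adjusted p = 0.742).

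Summed over all bins, both reductases had values that overlapped between the groups. Txnrd1 (ENSMUSG00000020250, chromosome 10, 82859206 to 82897724), the cytosolic reductase, stood at 37.4, 39.4 and 50.6 CPM in the controls and 45.0, 46.8 and 49.8 CPM in the knock-ins. Wild-type replicate 3 was the highest of all 6 hearts, so the groups overlapped, and the log2 difference of 0.15 had an interval from -0.14 to 0.44 (edgeR adjusted p = 0.491). Txnrd2 (ENSMUSG00000075704, chromosome 16, 18426384 to 18479073), the mitochondrial reductase, stood at 66.0, 50.5 and 53.2 CPM in the controls and 59.2, 59.0 and 45.4 CPM in the knock-ins. Here the highest and the lowest heart came from different groups, and the log2 difference of -0.05 had an interval from -0.36 to 0.25 (edgeR adjusted p = 0.841).

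Prdx1 (ENSMUSG00000028691, chromosome 4, 116685544 to 116700822) encodes an abundant cytosolic peroxiredoxin that thioredoxin reduces. It stood at 655, 688 and 663 CPM in the controls and 602, 534 and 550 CPM in the knock-ins. All 3 knock-in hearts were below all 3 wild-type hearts, as were those of 14% of all tested genes. Group means of 669 ± 16.9 and 562 ± 35.8 CPM (SD, 3 hearts each) gave a log2 difference of -0.25 ± 0.10 (SE) with an interval from -0.46 to -0.04. The edgeR p was 0.0238 before and 0.117 after adjustment, so the difference did not pass the threshold. It did pass when libraries were scaled by total counts alone (-0.32, edgeR adjusted p = 0.0488), a scaling that moved the median of all genes to -0.07. The adjusted p of Prdx1 ran from 0.0488 to 0.726 over the 19 other settings, and its sign was negative in every one of them. Summed levels of macrophage markers (153 to 158 against 193 to 214 CPM, with 1 of 6 genes called lower, Lyz2, from 133 to 86.8 CPM on average, while Csf1r and Adgre1 had log2 differences of 0.06 and 0.03) and of smooth muscle markers (84.9 to 168 against 241 to 270 CPM, with 3 of 4 called lower) were also below those of the wild-type hearts. Their part in the Prdx1 value was not tested. In bulk tissue, fewer cells of a type and less RNA per cell cannot be told apart.

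Prdx2 (ENSMUSG00000005161, chromosome 8, 84969587 to 84974834), the other cytosolic peroxiredoxin of this kind and an abundant protein of red cells, stood at 491, 512 and 448 CPM in the controls and 535, 505 and 473 CPM in the knock-ins. The groups overlapped, and the log2 difference of 0.06 had an interval from -0.16 to 0.28 (edgeR adjusted p = 0.746). Red cell markers summed to 582 to 783 CPM in the controls and 739 to 1394 CPM in the knock-ins, with 1 of 6 genes, the beta-globin gene Hbb-bs, called higher. Their part in the Prdx2 level was not tested. Prdx6 (ENSMUSG00000026701, chromosome 1, 161240112 to 161251219), a cytosolic peroxiredoxin with a single catalytic cysteine that draws on glutathione rather than thioredoxin, stood at 308, 312 and 274 CPM in the controls and 306, 324 and 293 CPM in the knock-ins. These overlapped as well, with a log2 difference of 0.05 and an interval from -0.18 to 0.27 (edgeR adjusted p = 0.816).

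Prdx3 (ENSMUSG00000024997, chromosome 19, 60864051 to 60874556), the peroxiredoxin of the mitochondrial matrix, stood at 291, 333 and 314 CPM in the controls and 350, 345 and 346 CPM in the knock-ins. Every knock-in heart was above every wild-type heart, as was so for 16.7% of all tested genes. The log2 difference was 0.15 ± 0.10 (SE) with an interval from -0.07 to 0.37 (edgeR adjusted p = 0.357), so it did not pass the threshold. With per-library offsets for exonic length and GC content, which raised the median of all genes to 0.03, it was 0.30 and passed (edgeR adjusted p = 0.0370). The adjusted p ran up to 0.792 over the other settings, none of which changed the sign.

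Prdx5 (ENSMUSG00000024953, chromosome 19, 6906697 to 6910106), found in mitochondria, peroxisomes and the cytosol, stood at 571, 542 and 454 CPM in the controls and 557, 457 and 411 CPM in the knock-ins. The groups overlapped and the log2 difference of -0.14 had an interval from -0.42 to 0.15 (edgeR adjusted p = 0.528). The 5′ end of its exon 1 overlaps the neighbouring gene Trmt112, whose counts were 4.27% of those of Prdx5, and reads of that stretch may be shared between them. Prdx4 (ENSMUSG00000025289, chromosome X, 155323918 to 155340754), the peroxiredoxin of the secretory pathway, stood at 17.9, 18.1 and 15.6 CPM in the controls and 18.5, 11.99 and 12.6 CPM in the knock-ins. Knock-in replicate 1 was the highest of all 6 and the other knock-in hearts the lowest. The log2 difference was -0.26 with the widest interval of the 10, from -0.64 to 0.13 (edgeR adjusted p = 0.373). Without knock-in replicate 1 it was -0.50 (edgeR adjusted p = 0.0458), and without another heart the adjusted p ran up to 0.744. Prdx4 rested on 394 to 568 counts per library, against 17548 to 21504 for Prdx1.

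**Figure D2:**
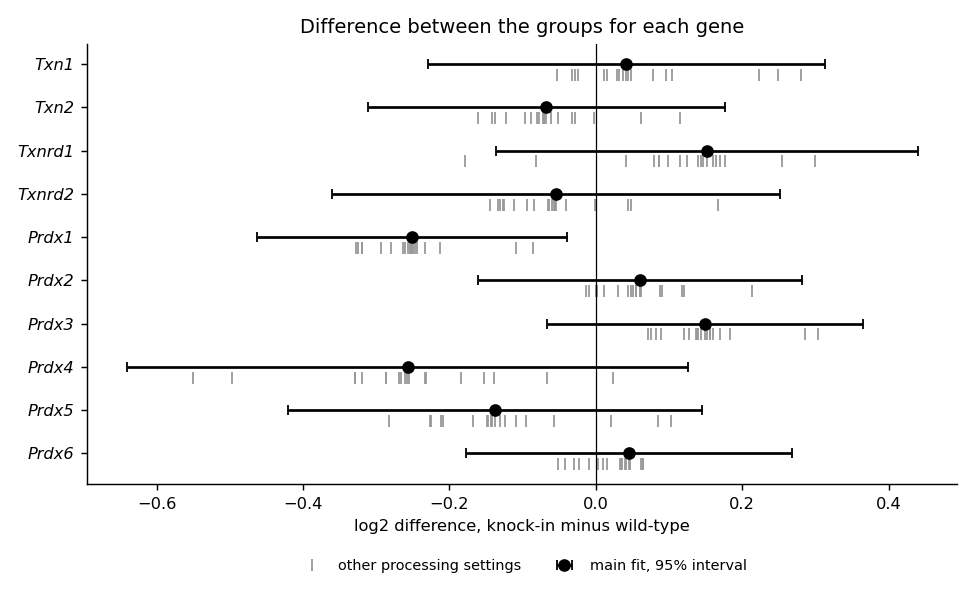
Log2 difference, knock-in minus wild-type (horizontal axis), of each of the 10 genes, with black points and bars for the edgeR estimate and its 95% interval and grey ticks for the values under the other settings. The interval of Prdx1 (-0.46 to -0.04) is the only one that does not reach 0, and Prdx1 and Prdx3 are the members whose ticks all lie on the same side of 0.

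By compartment, neither set moved as a whole. The cytosolic members (Txn1, Txnrd1, Prdx1, Prdx2 and Prdx6) summed to 1563 ± 65.8 CPM in the controls and 1494 ± 67.7 CPM in the knock-ins (SD, n = 3 per group). The mitochondrial members (Txn2, Txnrd2 and Prdx3) summed to 825 ± 43.9 and 836 ± 56.7 CPM. In both sets the hearts of the groups overlapped. Within a heart, the level per kb of Prdx3 over that of Prdx1 had a log2 ratio of -0.13, -0.00 and -0.04 in the controls and of 0.26, 0.41 and 0.37 in the knock-in hearts, without overlap. This ratio joins the members that had been seen not to overlap, and it is given as a description. It was taken over all bins, and in coding bins alone Prdx3 was below Prdx1 in every heart. The log2 ratio of Txn2 over Txn1 was 0.64, 0.67 and 0.79 in the controls and 0.63, 0.54 and 0.58 in the knock-ins, also without overlap but by a narrow margin. That of Txnrd2 over Txnrd1 was 0.46, -0.01 and -0.29 in the controls and 0.03, -0.03 and -0.50 in the knock-ins, which overlapped widely. The share of other gene pairs without overlap is not given. The log2 difference of Txn2 was 0.03 over its bins nearer the 5′ end and -0.17 over those nearer the 3′ end, both with overlap.

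**Figure D3:**
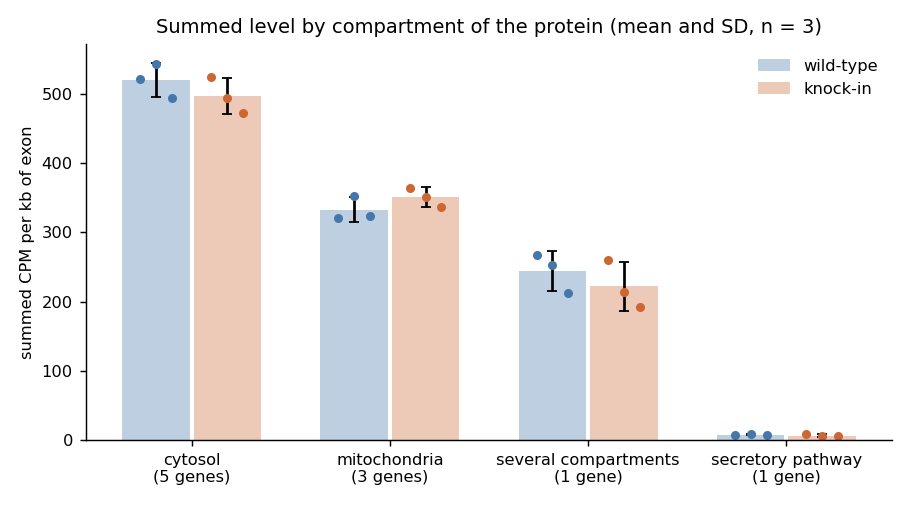
Summed level of the members in CPM per kb of exon (vertical axis, from 0) by compartment of the protein, with bars for the mean, error bars for the SD and points for the 3 hearts of each group. Cytosolic members sum to 520 in the controls and 497 in the knock-ins, mitochondrial members to 333 and 350, Prdx5 alone to 244 and 222, and Prdx4 alone to 8.15 and 6.83.

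Per kb of exon, the order of the members as a mean of the 6 hearts was Prdx5 (233 CPM per kb), Prdx3 (223), Prdx1 (202), Prdx2 (162), Txn2 (106), Txn1 (67.9), Prdx6 (63.0), Txnrd1 (13.1), Txnrd2 (12.6) and Prdx4 (7.49). The top of this order differed between the groups. In the controls it was Prdx5 (244 CPM per kb), Prdx1 (220) and Prdx3 (212), whose hearts overlapped. In the knock-ins it was Prdx3 (235), Prdx5 (222) and Prdx1 (185), with Prdx3 (233 to 237) above Prdx1 (175 to 198) in every heart and Prdx5 (192 to 260) overlapping both. The ranges of Txn1 and Prdx6, and those of Txnrd1 and Txnrd2, overlapped in either group. Within a heart, Txn1 was above Prdx6 in all 6, though narrowly in knock-in replicate 3 (61.3 against 61.1 CPM per kb). The order of Txnrd1 and Txnrd2 varied from heart to heart. Exonic length includes annotated exons that were hardly read in these hearts. A read that spans several bins is counted in each, so this scale also depends on how finely a gene is cut. Txn2 has 21 bins and Txnrd2 47, against 5 for Txn1 and 7 for Prdx3. In coding bins of at least 50 bases alone, the order was Prdx2 (647 CPM per kb), Prdx5 (635), Prdx1 (631), Txn2 (381), Prdx3 (337), Prdx6 (249), Txn1 (194), Txnrd2 (26.2), Prdx4 (23.7) and Txnrd1 (22.3). There Prdx1 was above Prdx3 in every heart, at 666 to 703 against 288 to 338 CPM per kb in the controls. In the knock-ins Prdx1 was at 551 to 610 against 358 to 359 CPM per kb for Prdx3. The change of order between Prdx1 and Prdx3 was thus seen over all bins only. On both scales the thioredoxin of the mitochondria was above that of the cytosol in all 6 hearts. The reductases were below the thioredoxins and below every peroxiredoxin other than Prdx4. Over all bins Prdx4 stood below both reductases. In coding bins it was between them only as a mean of the 6 hearts, and its place varied. It was above Txnrd1 and Txnrd2 in wild-type replicate 2 (26.9 against 18.1 and 23.7 CPM per kb). In knock-in replicate 3 it was below both (20.3 against 26.7 and 22.7 CPM per kb).

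The exon bins showed where along each gene the counts differed. For Prdx1, 8 of the 10 bins of the main transcript with at least 1 CPM were lower in all knock-in hearts, and the other 2 overlapped. The bin of exon 1 (62 bases, 116685599 to 116685660, untranslated) held 42.0, 46.6 and 51.9 CPM in the controls and 48.7, 42.7 and 45.4 CPM in the knock-ins. The bin of exon 3 with the codon of the peroxidatic cysteine held 96.2, 107 and 101 against 91.9, 82.9 and 85.9 CPM. The bin of the 3′ end (1550 bases) held 56.5, 56.6 and 52.5 against 47.6, 41.2 and 41.7 CPM. The log2 difference thus went from -0.04 in exon 1 to -0.22 in exon 3 and -0.34 at the 3′ end. For Prdx3, 5 of 7 bins were higher in all knock-in hearts, by 0.44 on the log2 scale in exon 1 and by 0.22 in exon 3. Its last bin, with the end of the coding sequence and the 3′ untranslated part, held 76.0, 81.7 and 75.6 against 78.8, 72.7 and 74.2 CPM, and overlapped. Neighbouring bins share reads, and Prdx1 and Prdx3 had already been seen not to overlap as sums. Their bins are therefore no separate support, and the share of such bins over all genes is not given.

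Txnrd1 split along its length. The bins nearer the 5′ end summed to 23.4, 26.4 and 35.5 CPM in the controls and 34.8, 35.1 and 37.8 CPM in the knock-ins. The last bin (1748 bases, 82895977 to 82897724), which holds the selenocysteine codon and the 3′ untranslated part, held 14.0, 13.0 and 15.1 against 10.2, 11.7 and 11.9 CPM, lower in every knock-in heart. The log2 ratio of the last bin over the rest was -0.74, -1.02 and -1.23 in the controls and -1.77, -1.59 and -1.66 in the knock-ins. A ratio of this kind, bins nearer the 3′ end over those nearer the 5′ end, was lower in every knock-in heart for 5 of the 10 members (Txn2, Txnrd1, Prdx1, Prdx2 and Prdx3), and for 46.7% of the 7461 tested genes with at least 50 counts at both ends in every library. Its mean was lower for 8 members and for 85.3% of those genes, so the members were near the share of other genes. It went the same way as the ratio over long genes given above, and the part of this coverage in the differences of the members was not tested.

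**Figure D4:**
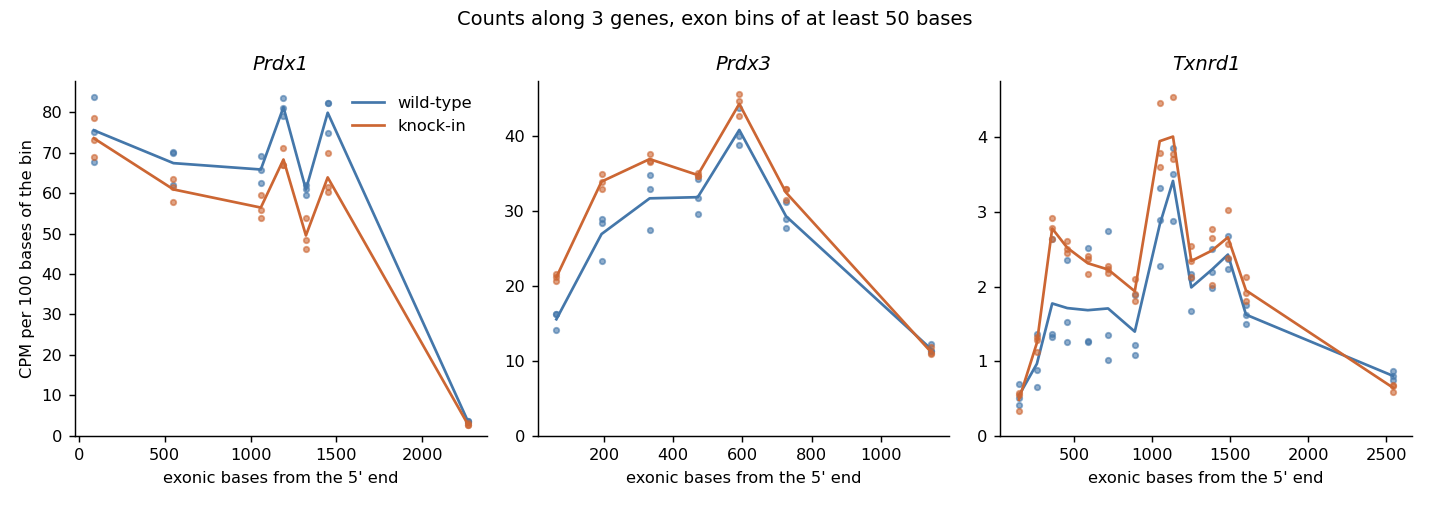
Counts along Prdx1, Prdx3 and Txnrd1, as CPM per 100 bases of each exon bin (vertical axis, from 0) by the distance of the middle of the bin from the 5′ end in exonic bases (horizontal axis), with points for hearts and lines for the means of the wild-type (blue) and knock-in (orange) groups. The knock-in line of Prdx1 starts close to the wild-type line and lies below it over the coding bins, with both low at the last bin, the lines of Prdx3 start apart and meet at the last bin, and those of Txnrd1 cross before the last bin.

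Promoters were searched because several of these genes are known targets of Nfe2l2 (NRF2), the regulator of the response to oxidants, which binds antioxidant response elements. The motif searched was TGACNNNGC on either strand, from 250 bases before to 50 bases after each start in RefSeq's table for GRCm38.p6. It was present in 2 of the 9 members found there, against 14.0% of 27025 genes and 12.4% of 32851 promoters. They are shown with the match in capitals, read on the strand of the gene, where the motif is in reverse.
Prdx1, match at 116685466 to 116685474 of chromosome 4: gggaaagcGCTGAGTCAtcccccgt
Txnrd1, match at 82859114 to 82859122 of chromosome 10: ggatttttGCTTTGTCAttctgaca
In Prdx1 the match began 133 bases before the start, and in Txnrd1 it began 92 bases before 1 of 3 listed starts. A match is a description of letters and shows no binding.

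Around the members, 6 lists of related genes held 86 genes, of which 83 were tested. Of these, 9 were higher and 2 lower in the knock-in hearts, 13.3% in all, against 10.8% of all tested genes, 6.74% higher and 4.09% lower. All 11 calls were lost when wild-type replicate 1 or knock-in replicate 2 was left out, where 0 related genes were called. Without wild-type replicate 2 a call was made for Sesn1 alone of the 11, and without knock-in replicate 3 for Sesn1, Tmx4 and Nadk2 alone. Without wild-type replicate 1, 208 genes of the whole table were called, and without knock-in replicate 2, 164, in place of 1415. The count also fell without wild-type replicate 2 (260) and knock-in replicate 3 (432). It rose without wild-type replicate 3 (2461) and knock-in replicate 1 (2064).

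Among 17 clients and regulators of thioredoxin and peroxiredoxin, 4 were higher and 13 did not pass, with a median log2 difference of 0.21. Sesn1, a sestrin, one of the stress proteins that restrain mTORC1, stood at 114, 141 and 124 CPM in the controls and 182, 213 and 192 CPM in the knock-ins. All knock-in hearts were above the wild-type hearts, 1.55-fold on average (log2 0.63 ± 0.12, SE, edgeR adjusted p = 0.00814). Its relative Sesn3 was 1.75-fold higher (9.50, 9.41 and 13.9 against 15.1, 21.4 and 20.8 CPM, edgeR adjusted p = 0.0223). Nfe2l2 was 1.44-fold higher, at 31.5, 38.2 and 33.3 CPM in the controls and 44.1, 49.3 and 54.5 CPM in the knock-ins (edgeR adjusted p = 0.0248). Msrb3, a methionine sulfoxide reductase, was 1.36-fold higher (edgeR adjusted p = 0.0331). Of the 19 other settings, 2 lost the call of Sesn1, 4 of 18 that of Sesn3, 4 that of Nfe2l2 and 9 of 18 that of Msrb3.

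Among thioredoxin-fold relatives and Txnip, 15 of 18 listed genes were tested, and 2 were higher, with a median of 0.03. Tmx4 and Tmx1, both transmembrane members of the family in the endoplasmic reticulum, were 1.76-fold (edgeR adjusted p = 0.0103) and 1.39-fold (edgeR adjusted p = 0.0379) higher. Tmx4 stood at 18.8, 23.1 and 28.2 CPM in the controls and 36.6, 40.1 and 46.8 CPM in the knock-ins. The call of Tmx1 was lost under 9 of the 19 other settings, upper-quartile and total-count scaling among them. Txndc16 did not pass (log2 difference 0.43, edgeR adjusted p = 0.0717).

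The glutathione arm, the other NADPH-fed route of peroxide reduction, had 1 of 13 genes lower and a median of -0.04. The gene was Gpx1, a selenium-containing glutathione peroxidase of the cytosol and mitochondria, at 105, 115 and 83.1 CPM in the controls and 73.5, 56.8 and 43.5 CPM in the knock-ins. Every knock-in heart was below the wild-type hearts, with a log2 difference of -0.80 ± 0.18 (SE, edgeR adjusted p = 0.0172). The call was lost under 6 of 19 other settings, and the difference was -0.50 over the last 1000 exonic bases and -1.90 before them. Gpx7, Glrx5 and Glrx2, the next by p, had log2 differences of -0.67, -0.39 and -0.28 with edgeR adjusted p of 0.0591, 0.132 and 0.173. The list named selenoprotein synthesis also held selenoproteins themselves (Selenot, Selenow, Selenok, Selenon, Selenof and Selenop). It had 0 of 13 genes called by edgeR, DESeq2 or limma-voom, and a median of -0.07. An unadjusted p under 0.05 was seen for 2 genes, Sephs2 (-0.42) and Secisbp2 (-0.51). Pstk, Scly, Sepsecs, Trnau1ap and Eefsec lay between -0.28 and -0.01. The selenoproteins lay between -0.12 (Selenof) and 0.26 (Selenot), so the median joins unlike parts.

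Among 13 genes of NADPH supply, on which both reductases depend, 2 were higher and 1 lower, with a median of 0.10. Nadk2, the mitochondrial NAD kinase, stood at 51.4, 55.2 and 65.5 CPM in the controls and 83.9, 88.1 and 93.5 CPM in the knock-ins, 1.54-fold higher (edgeR adjusted p = 0.00984). Its call was lost under 6 of 19 other settings, and over the last 1000 exonic bases its log2 difference was 0.14, against 0.63 over all bins. The cytosolic malic enzyme Me1 was 1.34-fold higher (edgeR adjusted p = 0.0248), and Aldh1l1, a folate enzyme that makes NADPH, was lower, with a log2 difference of -0.54 (edgeR adjusted p = 0.0409). The call of Me1 was lost under 7 of 19 other settings, with 0.18 from the highest bin, and that of Aldh1l1 under 5 of 18. Pgd, of the pentose phosphate pathway, did not pass (log2 difference 0.38, edgeR adjusted p = 0.0538). Nnt, the transhydrogenase that supplies NADPH to the mitochondrial matrix and that differs between C57BL/6 substrains, did not pass either (log2 difference 0.36, edgeR adjusted p = 0.0730). Its bins nearer the 5′ end held 94.5, 109 and 140 CPM in the controls and 237, 192 and 202 CPM in the knock-ins, without overlap, and those nearer the 3′ end held 627, 515 and 537 against 777, 584 and 600 CPM, with overlap.

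Among 12 genes of superoxide and hydrogen peroxide, 1 was higher, with a median of -0.10. Maob, an amine oxidase of the outer mitochondrial membrane that releases hydrogen peroxide, stood at 40.7, 52.9 and 64.6 CPM in the controls and 68.6, 87.5 and 79.6 CPM in the knock-ins (1.49-fold, edgeR adjusted p = 0.0375), a call lost under 9 of 19 other settings. Sod3, Romo1 and Nqo1 had log2 differences of -0.41, -0.77 and -0.25 with edgeR adjusted p of 0.105, 0.119 and 0.222.

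**Figure D5:**
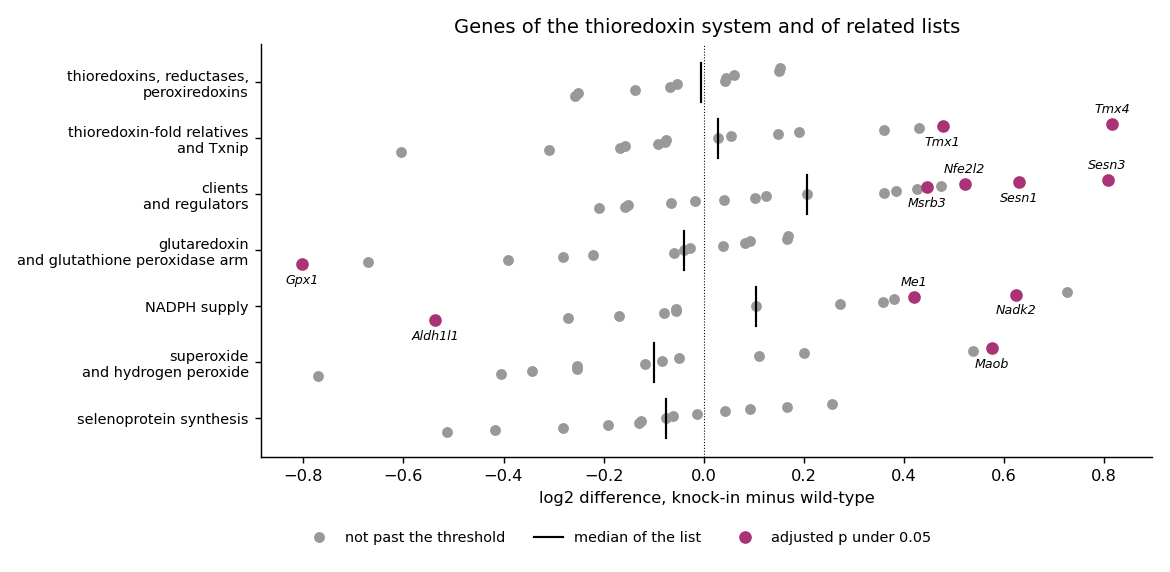
Log2 difference, knock-in minus wild-type (horizontal axis), of each tested gene of the thioredoxin system and of 6 related lists (rows), with called genes in purple and named, other genes in grey and the median of each list as a black line. The 10 members lie between -0.26 and 0.15 with none called, and 4 of the 11 calls are among the clients and regulators.

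The genes whose level followed Prdx1 most closely over the 6 hearts, by Pearson r of log2 CPM over 12699 genes, were Ankrd1 (0.996), Cmas (0.996), L3hypdh (0.996), Kti12 (0.995) and Kcnn1 (0.993). These are the highest of many values over 6 hearts that share the difference between the groups, and they are given as a description. Ankrd1, a cardiac ankyrin repeat gene, stood at 859, 950 and 844 CPM in the controls and 705, 563 and 585 CPM in the knock-ins.

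Markers of heart tissue were present. Cardiomyocyte markers (6 of 7 listed) summed to 76332 to 81898 CPM in the controls and 86828 to 92828 CPM in the knock-ins, with 0 of 6 called by edgeR, 1 called higher by DESeq2 and by limma-voom, and 2, Myh6 and Ryr2, at an unadjusted p under 0.05. Endothelial markers summed to 427 to 606 and 319 to 493 CPM (2 of 6 lower), and fibroblast markers to 730 to 796 and 692 to 827 CPM (1 of 6 lower). No marker of these lists was at 0 in all hearts, and adipocyte markers summed to at most 0.294 CPM. The part of these in the values of the members was not tested.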

How the data were processed

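Per the submitters' processing notes, the authors worked with GRCm38.p6, STAR, featureCounts, Subread 1.5.2 and DESeq2, and the deposited table holds whole-number counts of reads per exon bin without normalization, for 3 wild-type and 3 conditional knock-in mouse hearts. Roles and settings of these tools are not stated in the labels. Per the labels' protocols, RNA came from a column kit and libraries from a NEBNext Ultra II RNA kit. A read that spans several of the 425461 bins is counted in each, so sums over bins exceed reads. Bins were summed per gene identifier and named from GENCODE annotation of the same build. Of 1194 joined identifiers, 511 took the name of their only protein-coding gene, and the rest were left out of lists.

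Counts were filtered with filterByExpr, scaled by TMM and tested in edgeR 4.0.16 (R 4.3.3, glmQLFit with robust moderation, glmQLFTest) over 13066 genes, with p-values adjusted by Benjamini-Hochberg at a threshold of 0.05. CPM uses the scaled library sizes, and each SE is the log2 difference divided by the square root of F. DESeq2 1.42.0 and limma 3.58.1 (voom) were alternatives. Intervals and counts cover 3 hearts per group, and within groups libraries differed by more than counting noise (a chi-square of at least 15.1 per degree of freedom). Strand use is not stated. Near copies (blastn 2.17.0, at least 90% identity over 200 bases) elsewhere in the genome held at most 0.0648% of the counts of a member.

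The members and lists were chosen with earlier results of these data known. Named genes were all members, Txnip, up to 4 genes of each related list by smallest p, Nnt, and the 5 genes most like the member of smallest p, and markers and Trmt112 were named beside the results they touch. On data simulated for this comparison (12922 genes), 30 of 100 genes changed 1.5-fold and 71 of 100 changed 2-fold were recovered, with 9.01% false calls.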

Additional observations from a re-analysis of the deposited data

How the results depend on the processing

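The count of members past the threshold was 0 in all 6 hearts, 1 with total-count scaling (Prdx1), 1 with length and GC offsets (Prdx3), and 0 to 1 (Prdx4, without knock-in replicate 1) when a heart was left out. It was 0 under the other settings. Related genes past the threshold (9 higher and 2 lower) became 5 and 5 with upper-quartile scaling, 5 and 1 from the highest bin of each gene, and 3 and 0 from the last 1000 exonic bases. Lower genes numbered 6 before the last 1000 exonic bases, a setting added after seeing the data, and 4 with DESeq2. Leaving out a heart gave 0 to 14 higher and 0 to 7 lower genes. Higher and lower calls over the whole table went from 881 and 534 to 594 and 734 with upper-quartile scaling and to 552 and 700 with total counts.

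Signs turned as follows, for Txnip and for every member other than Prdx1 and Prdx3. They included Prdx4, Txnrd1 and Prdx5, whose log2 differences over all bins were -0.26, 0.15 and -0.14. With upper-quartile scaling, which put the median of all genes at -0.08, Txn1, Prdx2 and Prdx6 were at -0.033, -0.014 and -0.029, and with total counts at -0.028, -0.0087 and -0.023. From the highest bin, Txn2, Txnrd1, Txnrd2, Prdx5 and Prdx6 were at 0.12, -0.18, 0.17, 0.021 and -0.052. From the last 1000 exonic bases, Txn2, Txnrd1, Prdx4 and Prdx5 were at 0.061, -0.082, 0.024 and 0.10, Txnip was at 4.58 (edgeR adjusted p = 0.0057, against -0.60 over all bins), and Prdx6 could not be tested. Before the last 1000, Prdx6 was at -0.042, and Txn1 could not be tested. With offsets Prdx5 was at 0.085. When a heart was left out, Txn1 ranged from -0.054 to 0.10, Txnrd2 from -0.14 to 0.048 and Prdx6 from -0.0087 to 0.065. The cause of these changes was not tested. Levels per kb from the longest bin of a gene ran from 0.0317 (Prdx4) to 114 (Prdx3), since the longest annotated bin of many members was hardly read. No paired analysis was possible because the labels give no replicate numbers, and those used here only follow the order of the samples.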
